A study of Mus musculus with 2 samples.

Results

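The 59 Rab genes described here are the protein-coding genes whose annotated symbol is Rab followed by a number, with an optional letter, among 22015 protein-coding genes of the nuclear genome and 55536 annotated genes in all. Their RNA was measured by ribosomal-RNA-depleted total RNA sequencing of the nuclear fraction of mouse bone-marrow-derived macrophages, which are primary phagocytes grown from marrow precursors. All cells belonged to 1 group. C57BL/6J macrophages received 100 ng/ml Lipid A, the part of bacterial lipopolysaccharide that activates Toll-like receptor 4, over 12 h, rested in its absence over the next 12 h, and met 100 ng/ml once more in the last 50 min. There were 2 libraries, labelled biological replicate 1 (made from 500 ng of RNA) and biological replicate 2 (made from 1 µg). They have separate sample entries but the same donor entry. No unstimulated, once-stimulated or cytoplasmic library was analysed here, so the values give levels in one state and no response to Lipid A. The fraction is named nucleoplasmic in one label and nuclear in another. The labels give neither age nor sex.

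Rab proteins are small GTPases that mark the membranes of a cell. In the GTP-bound form a Rab sits on one kind of membrane and recruits effectors that tether, move or fuse vesicles, and in the GDP-bound form it is held in the cytosol by a dissociation inhibitor. In macrophages they time the maturation of phagosomes, the delivery of receptors and the release of cytokines.

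The libraries held 20612078 counts in replicate 1 and 22772081 counts in replicate 2. All 8 macrophage markers exceeded the median of expressed protein-coding genes, with mean levels between 42.6 and 1010 TPM (reads scaled by transcript length and by depth, so that levels of different genes can be compared), Lyz2 being the highest. Of 29 markers of other cell types, 1 was detected (Itga2b, 0.67 TPM) and 13 had 0 counts in both libraries. The summed level of these 29 was 1.93 TPM in replicate 1 and 1.36 TPM in replicate 2, against 2225 and 2232 TPM for the macrophage markers.

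More Rabs than protein-coding genes in general were detected in these nuclei, by share, and a few carried most of the Rab RNA. A gene was called detected with 10 or more counts in both libraries. By that rule 43 of the 59 Rabs (72.9%) were detected, against 50.3% of all protein-coding genes. The median level of detected Rabs was 8.33 TPM (8.03 in replicate 1 and 8.31 in replicate 2), against 4.32 TPM for detected protein-coding genes. Among the detected Rabs, 17 had a mean of 10 TPM or more, 16 lay between 1 and 10 TPM and 10 lay below 1 TPM. The median of expressed protein-coding genes (10 or more counts over both libraries) was 3.58 TPM, and 28 Rabs (47.5%) exceeded it, against 27.5% of all protein-coding genes. Their 90 percentile was 28.5 TPM, and 8 Rabs (13.6%) exceeded it, against 5.51% of all protein-coding genes. These 8 were Rab14, Rab7, Rab8b, Rab1a, Rab20, Rab10, Rab5c and Rab12. The 10 highest Rabs made up 63.8% of all Rab TPM in replicate 1 and 62.3% in replicate 2. Summed over the family, gene-level Rab TPM was 553 in replicate 1 and 558 in replicate 2, whereas the index-based sums were 385 and 185 TPM. These shares describe the list and carry no test.

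**Figure D1:**
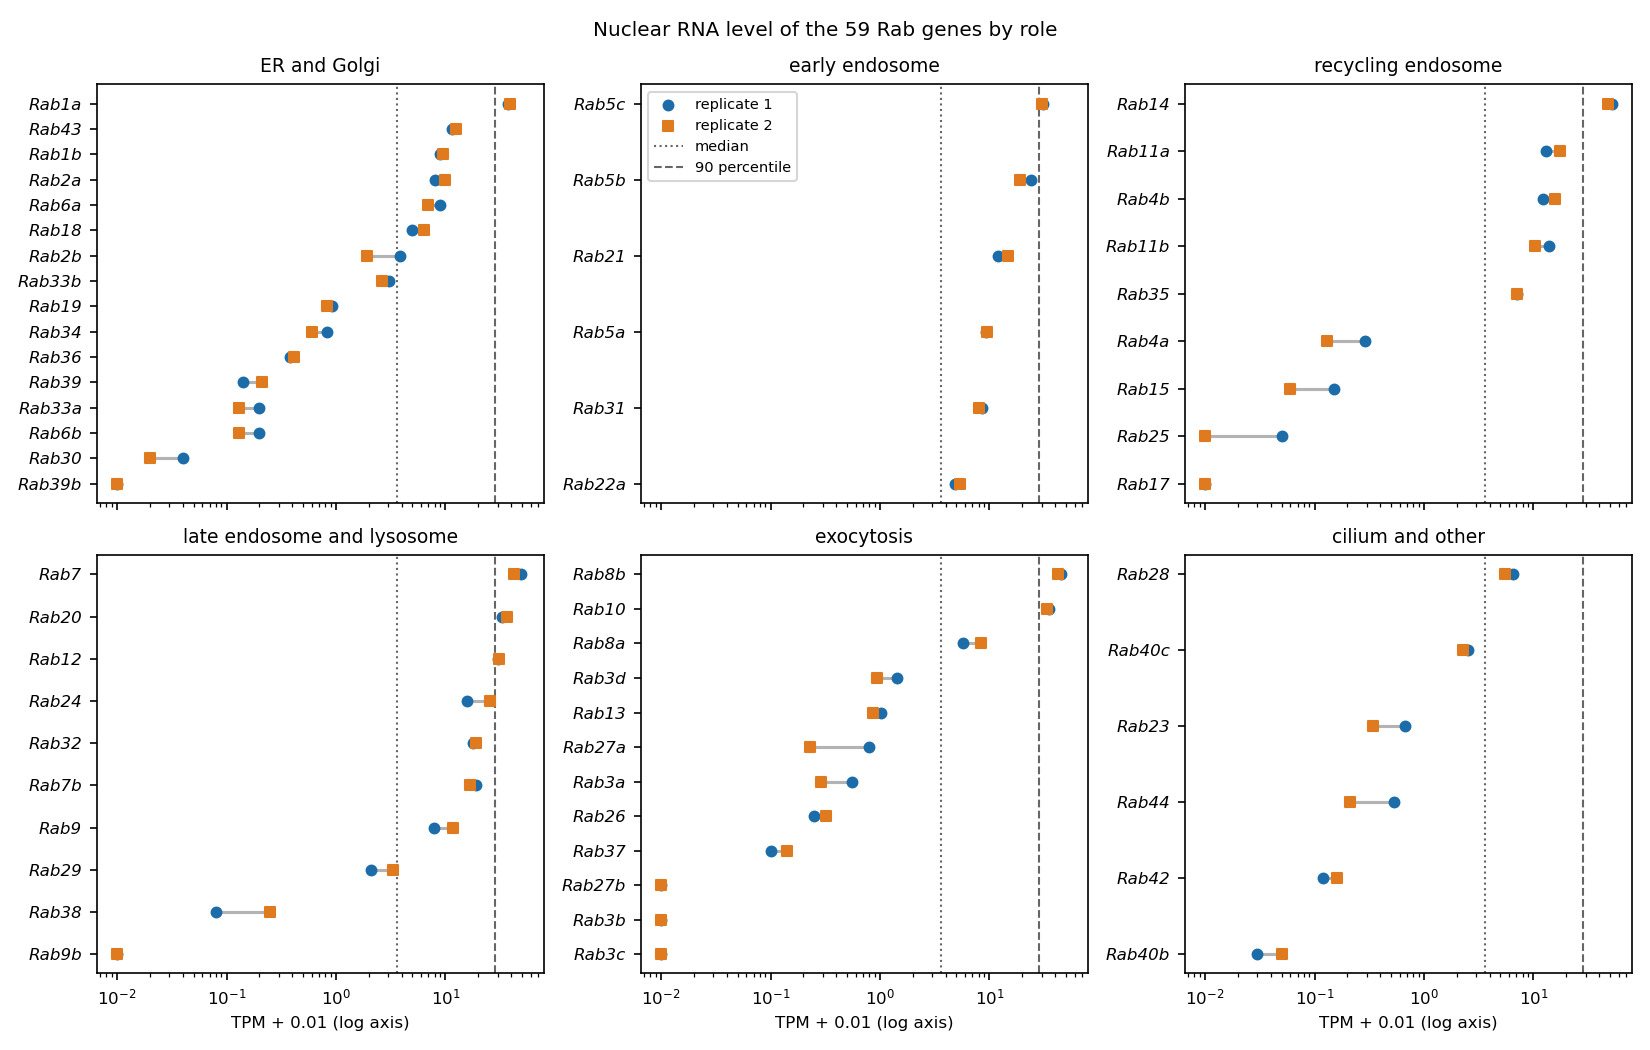
Level of each Rab gene in replicate 1 (circles) and replicate 2 (squares), as TPM with 0.01 added, on a log axis, in 6 panels by role. The dotted line is the median (3.58 TPM) and the dashed line the 90 percentile (28.5 TPM) of expressed protein-coding genes; all 6 early endosome Rabs lie right of the dotted line in both libraries.

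The Rabs of early endosomes were all present. Each of the 6 was detected and exceeded the protein-coding median, and their median was 11.3 TPM. The 3 Rab5 genes encode the GTPases that drive fusion of early endosomes and of young phagosomes. Rab5c had 30.8 TPM in replicate 1 and 30.3 TPM in replicate 2. Rab5b had 23.9 and 19.2 TPM, and Rab5a had 9.39 and 9.42 TPM. The order Rab5c, Rab5b, Rab5a held in both libraries and in both the gene-level and the index-based table. Rab21, which acts in the uptake of integrins, had 11.9 and 14.6 TPM. Rab31, which carries cargo between the trans-Golgi and endosomes, had 8.57 and 8.09 TPM, and its relative Rab22a had 4.88 and 5.38 TPM. Rab31 was 1.76 times Rab22a in replicate 1 and 1.504 times in replicate 2, but in the index-based table of replicate 2 the ratio was 0.886, so their order was not settled.

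The Rab5 genes show how such close paralogs can be told apart. Their coding sequences were aligned: Rab5c shares 77.4% of aligned bases with Rab5b and 74.0% with Rab5a. The lines below give the codons of the P-loop, the conserved stretch that holds the phosphates of the nucleotide, from GENCODE M21 on mm10. Capitals mark the 6 of 24 positions at which the genes differ.
Rab5c (chr11:100719976-100719999, minus strand): ggCgagtctgcCgtGggCaaGtcC
Rab5b (chr10:128686809-128686832, minus strand): ggAgagtctgcAgtGggGaaGtcT
Rab5a (chr17:53483991-53484014, plus strand): ggAgagtctgcTgtTggCaaAtcA
All 6 differences fall on the last base of a codon. The P-loop pattern was found in the chosen coding transcript of 56 of the 59 Rabs, and 58 had a cysteine codon among the last 4, where the lipid anchor is attached in this family.

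Late endosome and lysosome Rabs made up the largest share of the family's RNA among the 6 role groups, 31.7% of Rab TPM in replicate 1 and 33.4% in replicate 2. Of the 10 genes, 8 were detected, 7 exceeded the protein-coding median and 3 the 90 percentile. Rab7 (chr6:87999106-88045270), which directs fusion of late endosomes and phagosomes with lysosomes, had 49.3 TPM in replicate 1 and 42.1 TPM in replicate 2. Rab7b, which works between late endosomes and the trans-Golgi and has been tied to Toll-like receptor 4 turnover in mouse macrophages, had 19.1 and 16.8 TPM. Rab7 was 2.59 times Rab7b in replicate 1 and 2.52 times in replicate 2, with the same order in the index-based table. Despite the name the pair is not close, with 62.7% of aligned coding bases identical.

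Rab20 (chr8:11453518-11478710), a phagosome Rab of macrophages, had 33.1 TPM in replicate 1 and 36.6 TPM in replicate 2. Overlapping genes are annotated at its locus: E230013L22Rik on the opposite strand had 14.7 and 22.4 TPM, and Gm20100 on the same strand had 13.9 and 16.5 TPM. Since no source states if strand was used in counting, reads of Rab20 and of these genes may be mixed. Rab12, which sends transferrin receptor to lysosomes, had 29.9 and 30.97 TPM. Rab24, linked to autophagy, had 15.6 and 25.7 TPM, and it overlaps Prelid1 on the opposite strand (16.1 and 16.6 TPM). Rab32 and Rab38 both serve lysosome-related organelles such as melanosomes, but their levels were far apart. Rab32 had 17.98 and 18.85 TPM, whereas Rab38 had 0.07 and 0.24 TPM from 2 and 10 counts. Rab9, which returns receptors from late endosomes to the trans-Golgi, had 7.92 and 11.6 TPM, and Rab9b had 0 counts in both libraries. Rab29, a Rab of the Golgi and of stressed lysosomes, had 2.07 and 3.29 TPM.

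Recycling Rabs were split between 5 genes above the protein-coding median and 4 that were not detected. Rab14 (chr2:35180205-35201120), which moves cargo between the Golgi and endosomes and is found on phagosomes, was the highest Rab of all, with 51.8 TPM in replicate 1 and 48.2 TPM in replicate 2 (mean 50.0 ± 2.60, SD, n = 2). Rab11a, the Rab of the slow recycling route, had 13.1 and 17.6 TPM, and Rab11b had 13.7 and 10.3 TPM. Their order differed between the libraries at gene level, whereas by index-based TPM Rab11a was 2.28 times Rab11b in replicate 1 and 2.67 times in replicate 2. Rab4b, of the fast recycling route, had 12.2 and 15.6 TPM, whereas Rab4a had 0.28 and 0.12 TPM from 11 and 5 counts. Rab4b was 43.6 times Rab4a in replicate 1 and 130 times in replicate 2, although 74.8% of their aligned coding bases are identical. Rab35, which acts in recycling to the plasma membrane, had 7.03 and 7.12 TPM. Rab25, an epithelial relative of Rab11a, had 1 count in replicate 1 and 0 in replicate 2. Rab17, also epithelial, had 0 in both, and Rab15 had 5 in each.

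Of the 16 ER and Golgi Rabs, 13 were detected, 6 exceeded the protein-coding median and 1 the 90 percentile. Rab1a (chr11:20201432-20226856), which tethers vesicles from the ER to the Golgi, had 37.5 TPM in replicate 1 and 38.8 TPM in replicate 2. Rab1b had 8.88 and 9.43 TPM, so that Rab1a was 4.22 and 4.11 times Rab1b. Rab43, a Golgi Rab, had 11.4 and 12.6 TPM, but 74.8% of its 31-base stretches also occur in transcripts of Gm45140, an overlapping gene on the same strand. Rab2a, of the route between ER and Golgi, had 8.03 and 9.82 TPM, and Rab2b had 3.87 and 1.93 TPM. Rab6a, which acts in return traffic through the Golgi, had 8.97 and 6.97 TPM, against 0.19 and 0.12 TPM for Rab6b, whose coding bases are 78.5% identical; the ratio was 47.2 in replicate 1 and 58.1 in replicate 2. Rab18, of lipid droplets and the ER, had 4.89 and 6.35 TPM. Rab33b, which acts at the Golgi and in autophagy, had 3.05 and 2.63 TPM, and Rab33a had 0.19 and 0.12 TPM. Rab39 had 0.13 and 0.20 TPM, and Rab39b had 0 counts in both libraries. Rab19, Rab34 and Rab36 were detected at means of 0.865, 0.70 and 0.385 TPM, and Rab30 had 8 and 2 counts.

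Exocytic Rabs included both some of the highest Rabs and several at or near 0. Of 12 genes, 7 were detected, 3 exceeded the protein-coding median and 2 the 90 percentile. Rab8b (chr9:66843664-66919687), one of a pair that carries cargo to the plasma membrane, had 45.1 TPM in replicate 1 and 42.7 TPM in replicate 2. Its partner Rab8a had 5.75 and 8.31 TPM, so that Rab8b was 7.85 and 5.13 times Rab8a. Rab10 (chr12:3247428-3309969), which in mouse macrophages delivers Toll-like receptor 4 to the plasma membrane, had 35.4 and 33.2 TPM, against 1.02 and 0.86 TPM for Rab13, a Rab of epithelial junctions. An antisense gene, Rab10os, overlaps Rab10 and had 10.01 and 11.14 TPM.

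The Rabs of regulated secretion were low. Rab3d had 1.41 TPM in replicate 1 and 0.93 TPM in replicate 2, and Rab3a, best known from synaptic vesicles, had 0.55 and 0.28 TPM. Rab27a, which docks secretory granules, had 0.78 and 0.22 TPM. At gene level Rab3b and Rab3c had 0 counts in both libraries, Rab27b had 1 and 0, Rab26 had 10 and 7, and Rab37 had 6 and 9. By index-based TPM, however, Rab27a was 0.957 times Rab27b in replicate 1 and 0.425 times in replicate 2. Rab3d was 0.953 and 1.05 times Rab3c by that measure, so the order within both pairs was not settled. For a gene with 0 counts the upper limit, set at 3 counts, is 0.146 CPM in replicate 1 and 0.132 CPM in replicate 2, and it covers counting error only. Among the cilium and other Rabs, 4 of 6 were detected and 1 exceeded the protein-coding median. That was Rab28, a Rab of ciliated cells, at 6.53 and 5.46 TPM. Rab40c, part of a ubiquitin ligase, had 2.49 and 2.24 TPM, and Rab40b had 1 and 2 counts. Rab23, which acts in Hedgehog signalling, had 0.66 and 0.33 TPM. Rab44 had 0.52 and 0.20 TPM, and Rab42 had 2 and 3 counts.

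Detected Rabs had more CG dinucleotides in their promoters than Rabs that were not detected, as a description with no test. The 250 bases before the RefSeq start (GRCm38.p6) were matched for 48 of the 59 genes. Where a gene had several starts, the stretch with the most CG was kept, for Rabs and for all protein-coding genes. Genes with more annotated starts thus had more stretches to choose from. The 38 detected Rabs had a median of 20 CG (5 to 42), against 7.5 CG (3 to 27) in the 10 that were not detected. Of the detected Rabs 33 (86.8%) had 10 or more CG, against 3 (30%) of the others. Protein-coding genes as a whole showed a similar gap, with 78.4% of 8784 detected genes and 28.3% of 7738 not detected genes at 10 or more, so the gap is not particular to Rabs. CG reads the same on both strands, and 92.1% of all promoters held at least 1. Rab14, the highest Rab, and Rab17, with 0 counts, are printed below, with each CG in capitals.
Rab14 (chr2:35201121-35201370, minus strand, 23 CG): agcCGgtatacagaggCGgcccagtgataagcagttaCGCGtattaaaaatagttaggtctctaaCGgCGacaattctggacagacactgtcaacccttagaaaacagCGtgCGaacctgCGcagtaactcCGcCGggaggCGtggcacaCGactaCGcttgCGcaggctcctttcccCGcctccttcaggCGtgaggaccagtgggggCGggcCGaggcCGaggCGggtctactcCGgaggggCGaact
Rab17 (chr1:90967668-90967917, minus strand, 3 CG): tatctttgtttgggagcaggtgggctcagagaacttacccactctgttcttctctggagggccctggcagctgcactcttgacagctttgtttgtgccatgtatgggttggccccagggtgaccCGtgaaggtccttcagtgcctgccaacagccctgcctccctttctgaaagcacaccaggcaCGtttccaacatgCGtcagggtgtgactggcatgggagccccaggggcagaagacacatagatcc
The CG count did not order the levels among detected Rabs: Rab32 had 5 CG and a mean of 18.4 TPM, whereas Rab23 had 42 CG and 0.495 TPM and Rab6b had 40 CG and 0.155 TPM.

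**Figure D2:**
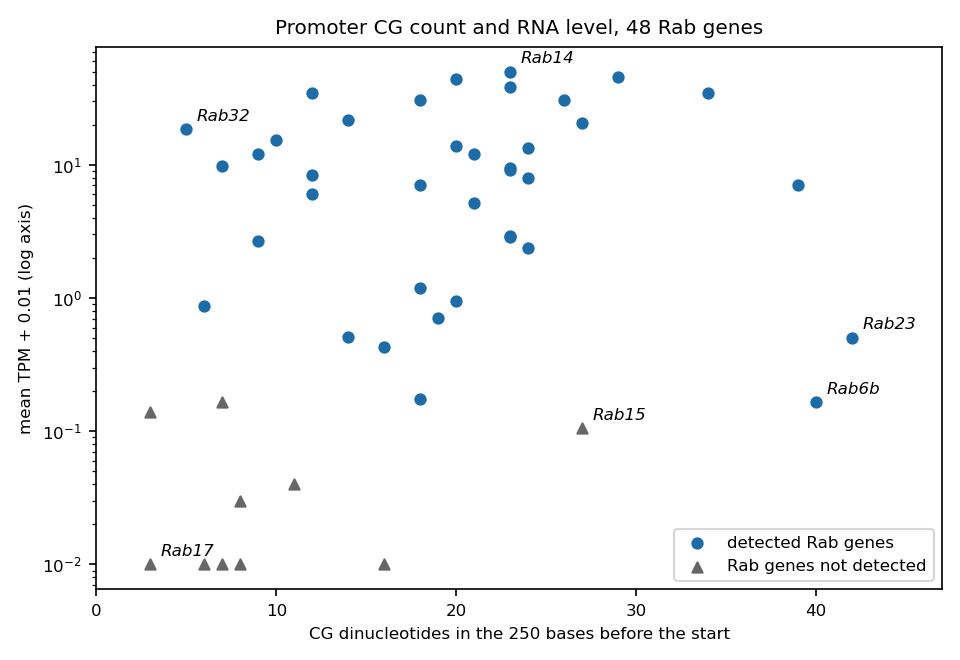
Number of CG dinucleotides in the 250 bases before the start (horizontal axis) and mean TPM of both libraries with 0.01 added (vertical log axis) for 48 Rab genes, detected (circles) or not (triangles). For each gene the start with the most CG is shown. Most triangles lie at the left, with Rab15 at 27 CG, and the circles spread from 5 to 42 CG.

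Part of the Rab RNA was assigned to transcripts that are not annotated as protein-coding. These are retained-intron transcripts, transcripts marked for nonsense-mediated decay and processed transcripts. The 59 genes have 256 annotated transcripts, of which 101 are of these kinds, and 18 genes have coding transcripts only. Of the 32 Rabs with 100 or more counts in both libraries, the median share of transcript TPM in such transcripts was 17.7% in the index-based table, compared with 31.8% over 7832 protein-coding genes at that depth. Among genes with any such transcript annotated it was 29.5% for 22 Rabs and 37.9% for 6658 protein-coding genes. In the alignment-based table the medians were 6.22% for the 32 Rabs and 20.8% for protein-coding genes.

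In 5 of the 32 Rabs (15.6%, against 27.8% of protein-coding genes) the mean share was at least 50%. Rab4b had 64.6% in replicate 1 and 67.8% in replicate 2, divided between retained-intron and processed transcripts. Rab12 had 59.2% and 66.8%, with the same 2 kinds. Rab8a had 60.1% and 60.5%, nearly all of it retained intron. These are shares of TPM, which is scaled by transcript length, and shares of counts can be far smaller. By index-based counts the retained-intron transcript Rab8a-202 held 104.5 of 946 in replicate 1 and 118.1 of 1082 in replicate 2. Rab14 had 45.3% and 57.2%, mostly retained intron. Rab2b had 58.96% and 68.53%, and there most was in transcripts marked for nonsense-mediated decay, from few counts. By alignment-based TPM the mean shares of Rab4b, Rab8a, Rab14, Rab12 and Rab2b were 48.6%, 46.3%, 45.6%, 40.6% and 29.4%, with Rab8a at 51.99% and Rab4b at 50.96% in replicate 2. In that table the mean share was at least 50% for 1 of the 32 Rabs, Rab40c, with 75.9% in replicate 1 and 33.9% in replicate 2. At the other end, Rab7, Rab8b, Rab10, Rab20, Rab5c and Rab21 have no annotated transcript of these kinds.

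**Figure D3:**
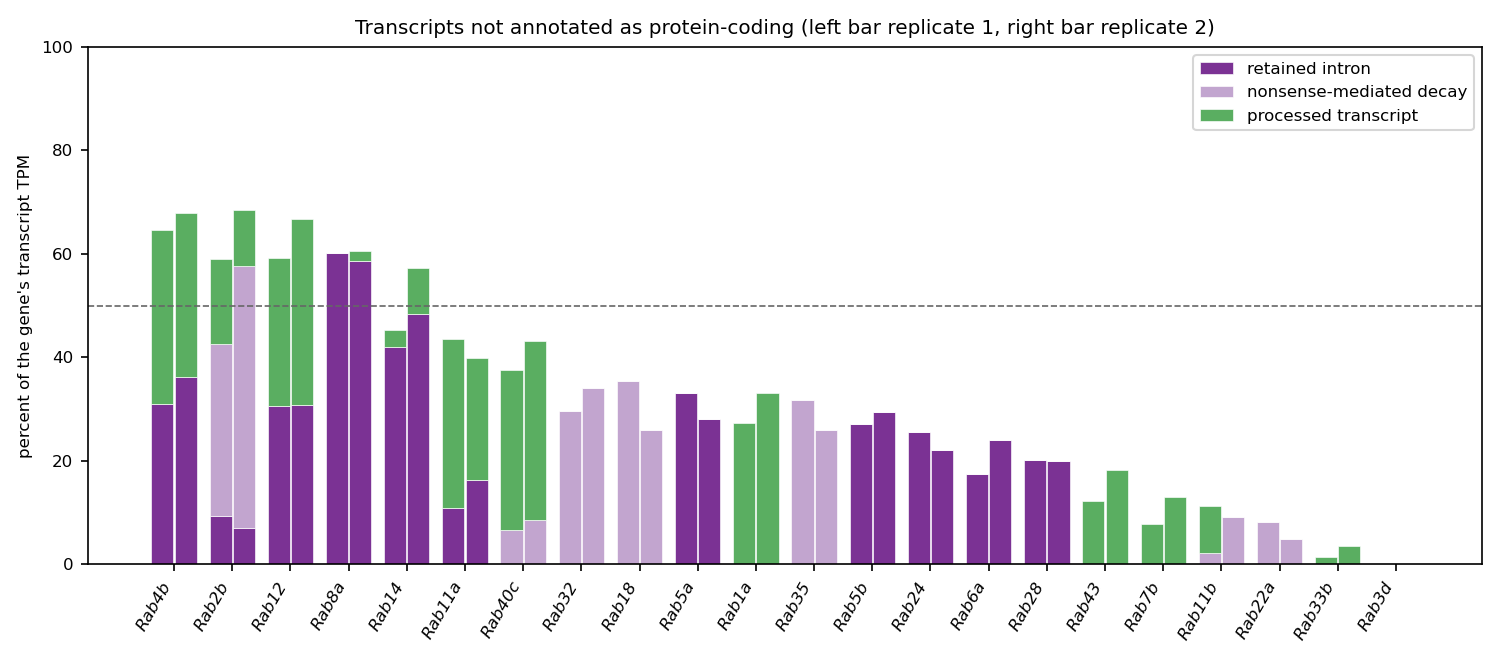
Percent of each gene's index-based transcript TPM in retained-intron, nonsense-mediated decay and processed transcripts, for the 22 Rabs with 100 or more counts in both libraries and such a transcript annotated; left bars are replicate 1 and right bars replicate 2. Rab4b, Rab2b, Rab12 and Rab8a exceed the dashed 50% line in both libraries, and Rab14 exceeds it in replicate 2 at 57.2%.

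A retained intron was placed where an intron of the coding transcript lay wholly inside an exon of a retained-intron transcript. This gave introns for 9 Rabs, as 20 transcript and intron pairs of 79 to 1118 bases. Rab8a, Rab12, Rab5a and Rab5b have retained-intron transcripts but gave no such intron, and Rab27b was not searched. All 20 placed introns begin with GT and end with AG. The ends of 3 of them are shown, since RNA that runs unbroken through these junctions is what marks the unspliced form. Each line has 30 bases, 12 of them exonic, and capitals mark the GT or AG at the intron's edge.
Rab4b intron 2 of 7, 5′ end (chr7:27176140-27176169, minus strand): ttgagaataagtGTgagtttctggcaggac
Rab4b intron 2 of 7, 3′ end (chr7:27175882-27175911, minus strand): tttccctcctactctcAGtcaaacaggact
Rab14 intron 6 of 7, 5′ end (chr2:35183726-35183755, minus strand): ctgaggaaaacgGTgggtttgagacttaac
Rab14 intron 6 of 7, 3′ end (chr2:35183412-35183441, minus strand): tctgaattttatttttAGgcttattgttcc
Rab24 intron 1 of 7, 5′ end (chr13:55321520-55321549, minus strand): ccctatcagaacGTgagtgcacccctgcgg
Rab24 intron 1 of 7, 3′ end (chr13:55321447-55321476, minus strand): tctcttccctggttgtAGaccatcggggct
The Rab4b intron spans 264 bases (chr7:27175894-27176157), and the transcript that keeps it, Rab4b-205, had 145 counts in replicate 1 and 189 in replicate 2 in the alignment-based table. Rab14-202, which keeps this Rab14 intron of 320 bases and the next one, had 521 and 512 counts. Rab24-204, which keeps this Rab24 intron of 79 bases and 2 more, had 115 and 172 counts. This intron lies within the span of Prelid1 on the opposite strand, which had 639 and 711 gene-level counts. As the use of strand in counting is not known, the counts of Rab24-204 may include reads of Prelid1. In each case the counts are those of a whole transcript, so they do not come from the intron alone.

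Among the Rabs with enough counts to test, 1 differed between the libraries by at least 2-fold past the test. Replicate 1 was set against replicate 2 with a two-sided exact binomial test of counts, which compares 2 libraries and covers counting error only. RNA input and replicate number cannot be told apart, and in bulk RNA fewer cells of a type and less RNA per cell cannot be told apart either. A gene was called at a Benjamini-Hochberg adjusted p under 0.05 over all 16140 tested genes and a difference of at least 2-fold. Of the 50 tested Rabs, 1 was called (2%), against a background of 6.65% of all tested genes. That was Rab27a, with 58 counts in replicate 1 and 21 in replicate 2 (log2 ratio 1.51, adjusted p = 6.77e-05 by the exact binomial test). Of all tested genes 2.01% were called higher in replicate 1 and 4.63% higher in replicate 2. The edgeR exact test kept the call of Rab27a at a preset dispersion of 0.01 but not at 0.04. In the index-based table its log2 ratio was 0.87, short of the 2-fold limit. Rab38 (2 counts in replicate 1 and 10 in replicate 2), Rab30 (8 and 2) and Rab4a (11 and 5) also had ratios beyond 2-fold, but with so few counts none passed the test.

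At any size of difference, 21 of the 50 Rabs (42%) had an adjusted p under 0.05, against a background of 38.8%, so this share was close to that of all genes. Of these, 12 were higher in replicate 1 and 9 in replicate 2. The direction of Rab10, 1 of the 12, turned in the index-based table (log2 ratio 0.10 at gene level and -0.02 by index-based counts). Rab24 was lower in replicate 1, with 545 counts against 865 in replicate 2 (log2 ratio -0.60, adjusted p = 1.62e-13 by the exact binomial test). Rab29 was also lower there, with 60 counts against 103 (log2 ratio -0.71). In edgeR's exact test with a preset dispersion of 0.01 or 0.04, neither Rab24 nor Rab29 had an adjusted p under 0.05. Rab2b was higher in replicate 1, with 240 counts against 160 (log2 ratio 0.65), and so was Rab3d, with 169 against 117 (log2 ratio 0.59). Rab2b and Rab3d did not pass edgeR's exact test at those dispersions either. By index-based counts the log2 ratios were only 0.04 for Rab2b and 0.24 for Rab3d, whereas those of Rab24 and Rab29 were -0.68 and -0.77. For the 32 Rabs with 100 or more counts in both libraries the median size of the log2 ratio was 0.165, against 0.226 for 7832 protein-coding genes at that depth. In 29 of those 32 it was under 0.5. The median log2 ratio over the 50 tested Rabs was 0.10, against -0.01 over all tested genes.

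**Figure D4:**
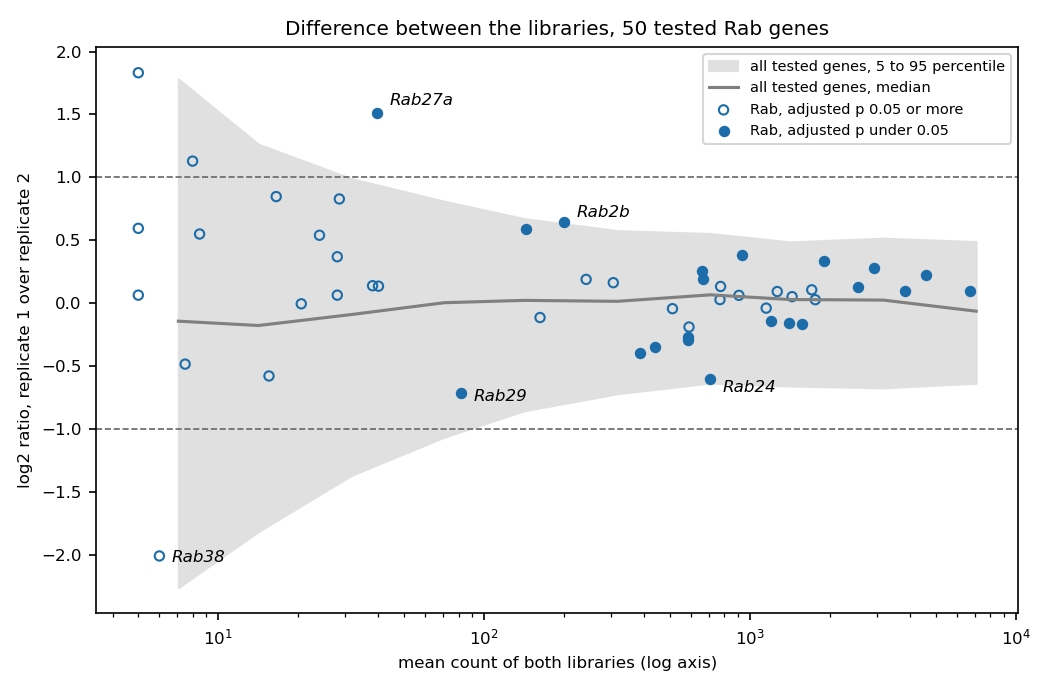
Log2 ratio of counts, replicate 1 over replicate 2, against the mean count of both libraries (log axis) for the 50 tested Rabs; filled points have an adjusted p under 0.05, the grey band holds the 5 to 95 percentile of all tested genes and dashed lines mark 2-fold. Rab27a, at 1.51, is the filled point beyond a dashed line.

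TPM is set per transcript length, so levels and counts could differ in direction where counts went to transcripts of other lengths. In 9 of the 43 detected Rabs the TPM and the scaled count pointed opposite ways. For Rab11a the log2 count ratio was 0.13, higher in replicate 1, whereas its TPM was 13.1 in replicate 1 and 17.6 in replicate 2. For Rab43 the main transcript differed between the libraries. In the alignment-based table Rab43-201 had 947 counts in replicate 1 and 260 in replicate 2, and Rab43-203 had 443 and 1362 counts, while the gene had 1437 and 1686 counts.

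For 6 Rabs that were low or at 0 at gene level, the transcript table built from the index held more counts. Rab3c had 0 gene-level counts in both libraries, against 576 index-based counts in replicate 1 and 298 in replicate 2. Rab9b had 0 and 0, against 300 and 164 index-based counts. Rab27b had 1 and 0, against 190 and 169. Rab37 had 6 and 9, against 127 and 53.8, of which the retained-intron transcript Rab37-203 held 117 and 41.8. Rab37 overlaps Cd300lf, a myeloid receptor gene on the opposite strand. Rab30 had 8 and 2, against 97.0 and 51.2, and Rab23 had 39 and 37, against 297 and 226, mostly in the retained-intron transcript Rab23-207. These 6 Rabs had at least 3 times as many index-based as gene-level counts and at least 50 index-based counts in both libraries, as did 1750 of the 22015 protein-coding genes. In all 6, under 2% of 31-base stretches occur in transcripts of another gene, in a comparison that covered annotated transcripts only. The few shared stretches of Rab3c occur in transcripts of 3000 other genes, and those of Rab23 in 1. The tables differ on the amount of RNA of these 6 genes, of which only Rab23 was detected at gene level, and the reason was not tested. Over detected Rabs the median ratio of gene-level to index-based TPM was 1.65 in replicate 1 and 3.23 in replicate 2, against 1.45 and 3.10 for detected protein-coding genes. In replicate 2 this ratio was at least 3 for 26 of the 43 detected Rabs, and in replicate 1 for 0 of them. By index-based counts, 1 Rab of 55 tested was called between the libraries (Rab4a, with 24 and 7 counts), against a background of 9.26%.

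**Figure D5:**
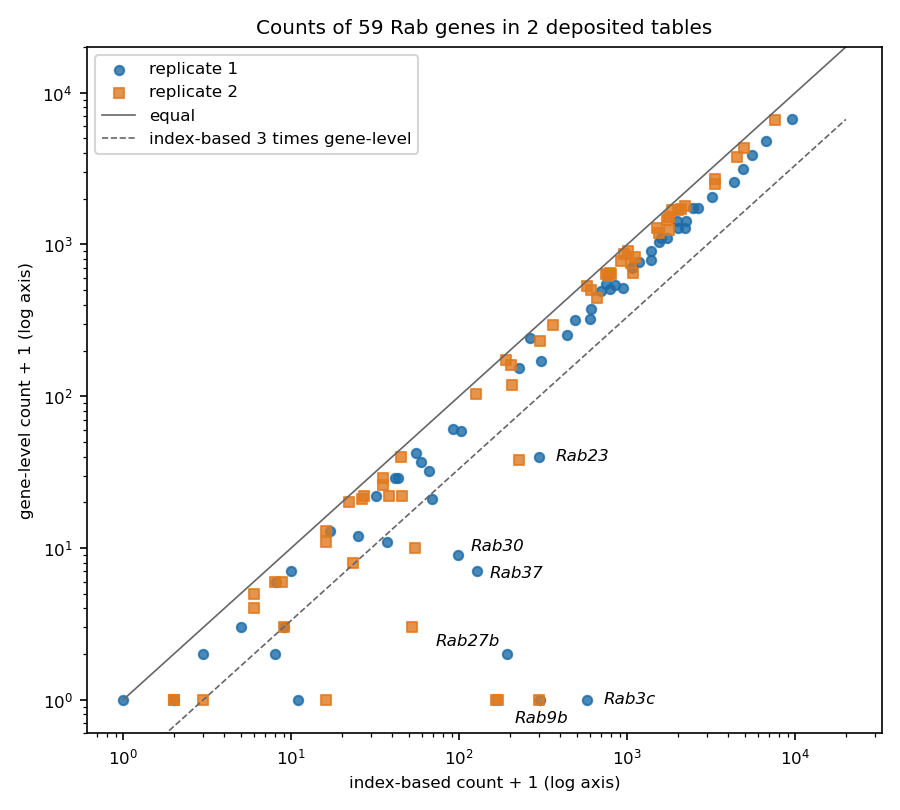
Gene-level count (vertical) against index-based count (horizontal) of each of the 59 Rabs, with 1 added, on log axes, for replicate 1 (circles) and replicate 2 (squares). Most points lie just below the solid line of equality, and Rab3c, Rab9b, Rab27b, Rab30, Rab37 and Rab23 lie below the dashed line in both libraries.

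Sequence shared with other genes touched some of these values. The median Rab shared 0.774% of its 31-base stretches with transcripts of another gene, and 40 of 59 shared under 5%. The 13 that shared 10% or more included Rab43 (74.8%), Rab4b (62.7%, of which 59.2% with the overlapping gene Gm21983), Rab2b (59.6%, of which 56.4% with Gm43766) and Rab24 (54.4%, with Prelid1). Rab20 shared 24.01% with E230013L22Rik and Rab7 shared 18.4%, most of it with the pseudogene Rab7-ps1. How counts were divided in these 13 genes is uncertain.

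Most of the machinery that switches and uses Rabs was detected. Of 137 listed regulators and partners, 121 were detected, 87 exceeded the protein-coding median and 17 the 90 percentile, with a median of 6.53 TPM. All 4 GDI and REP genes, which escort Rabs in the cytosol, were detected. Gdi2 had 33.4 TPM in replicate 1 and 27.9 TPM in replicate 2. Both subunits of the geranylgeranyl transferase, which attaches the lipid anchor, were detected, Rabggtb at 8.80 and 12.1 TPM and Rabggta at 3.84 and 4.50 TPM.

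Of 35 exchange factors (GEFs), which load GTP, 34 were detected. Ric1, part of the exchange factor of Rab6, had 79.8 and 86.1 TPM, and Dennd1a, an exchange factor of Rab35, had 49.0 and 63.1 TPM. Of 35 GTPase-activating proteins (GAPs), which switch Rabs off, 32 were detected, with Tbc1d13 at 45.0 and 50.8 TPM and Tbc1d2b at 40.9 and 48.4 TPM. Of 61 effectors and partners, 49 were detected, with Rufy3 at 47.4 and 72.7 TPM and Appl2, an effector of Rab5, at 62.6 and 54.9 TPM.

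The 16 regulators that were not detected included many effector-class partners of the secretory Rabs, named here after their values were seen. Of 8 effector-class genes taken as partners of Rab27, 7 were not detected, each with at most 8 counts in a library. These were Sytl1, Sytl2, Sytl3, Sytl4, Sytl5, Mlph and Myrip. Unc13d, by contrast, had 5.71 TPM in replicate 1 and 9.17 TPM in replicate 2. In the effector class, the 3 genes taken as partners of Rab3 (Rims1, Rph3a and Rph3al) had 0 counts in both libraries. Listed GEF and GAP genes named after Rab3 were detected. Rab3gap2 had 28.6 TPM in replicate 1 and 30.2 TPM in replicate 2, and Rab3gap1 had 8.84 and 7.45 TPM. Rab3il1 had 9.25 and 8.04 TPM, and Rab3ip had 0.54 and 0.82 TPM. Between libraries 3 of 126 tested regulators (2.38%) were called, all higher in replicate 2, where the background of that direction was 4.63%. These were Dennd6b (319 counts in replicate 1 and 692 in replicate 2, log2 ratio -1.05), Tbc1d25, a GAP of Rab33b (51 and 115, log2 ratio -1.10), and Rilpl1, which binds Rab8 and Rab10 (77 and 163, log2 ratio -1.01). Each lay just past the 2-fold limit. Dennd4a, higher in replicate 1 with 3698 counts against 2040, lay just short of that limit (log2 ratio 0.92). The shared direction of the calls thus depends on the limit and on the scaling. Scaled by library totals, Dennd6b (-0.97) and Rilpl1 (-0.93) fell short of the 2-fold limit, whereas Dennd4a passed it. The regulators called with that scaling thus pointed both ways. By index-based counts Tbc1d25 fell short of the limit (-0.85).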

How the data were processed

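The authors deposited, for each of 2 libraries, a gene-level table and 2 transcript tables, one made from alignments and one from a transcript index, on mm10 with GENCODE M21, per the file headers. The deposited expected counts are estimated reads per gene, in which shared reads are divided. Aligner, quantifier and strandedness: not given in the sources. The authors' TPM and FPKM are scaled by length and depth. Protein-coding genes held 17.8% of TPM in replicate 1 and 19.6% in replicate 2. Rows that name no gene (0.144% and 0.0810% of counts) were left out.

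Expected counts were rounded. TMM factors from edgeR 4.0.16 (R 4.3.3) scaled the libraries, and ratios had 0.5 added to each count. Genes whose counts summed to at least 10 were tested by a two-sided exact binomial test (SciPy 1.17.1), tested on simulated data. With 1 library on each side, no count model with a spread among samples could be had. SDs reflect 2 libraries whose difference may be technical, and p-values cover counting error only. Alternatives used library totals, DESeq2 1.42.0 size factors, edgeR's exact test with preset dispersions, other count minimums and the other tables.

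Coding sequences and introns came from GENCODE M21, promoters from RefSeq (GRCm38.p6); proteins were not used here. Stretches of 31 bases were compared over all transcripts, and coding sequences aligned with Biopython 1.88. Values per library were given for the 3 highest Rabs of each role, Rabs called between libraries, paralog sets with a detected member, Rabs with a noncoding share of at least 50%, the 2 highest regulators of each class and regulators called. The values of 1 regulator that this rule names are not reported here. The Rab genes and the lists were chosen with earlier results of these data known.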

Additional observations from a re-analysis of the deposited data

How the results depend on the processing

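The number of detected Rabs ranged from 32 to 52 under the alternatives that kept the full list of 59, and was 44 and 45 with 1 library alone. The median TPM of detected Rabs was 3.56 in the index-based table, 5.81 with any count above 0, 12.0 with 100 counts in both libraries, 44.6 as TPM over protein-coding genes, 12.9 as FPKM, and 7.92 to 8.20 with 1 library left out. With the 90 percentile taken over genes with 100 counts in both libraries, 3 Rabs exceeded it in place of 8. Leaving out the 13 Rabs with 10% or more shared 31-base stretches was an alternative chosen after seeing the data. It left 31 detected Rabs and gave a median of 6.00 TPM and a noncoding share of 24.5%. The median noncoding share was 6.22% in the alignment-based table, 7.55% from counts, 3.54% with nonsense-mediated decay counted as coding, and 14.9% to 19.2% with 1 library left out. Between libraries, 0 Rabs were called at 100 counts in both libraries, where Rab27a is not tested, and 0 with edgeR at a dispersion of 0.04; for regulators these counts were 1 and 0. With edgeR at a dispersion of 0.01 the numbers of Rabs and of regulators called did not change. The median log2 ratio of Rabs was 0.18 with library totals, which moved the median of all tested genes to 0.07, and 0.044 in the index-based table. The index-based table moved the TPM of 38 of the 43 detected Rabs by more than 1 SD between libraries, and the alignment-based table moved 0. Of the log2 ratios of the 50 tested Rabs, 3 changed sign with library totals, Rab1b to 0.036, Rab32 to 0.041 and Rab34 to 0.075. By index-based counts, 8 changed sign: Rab10 to -0.025, Rab12 to -0.010, Rab13 to -0.028, Rab15 to -0.51, Rab19 to -0.037, Rab34 to 0.54, Rab37 to 0.90 and Rab5c to -0.16. The cause of these shifts was not tested beyond what each setting changes by its construction. No paired analysis was possible because there is 1 group.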
